A study of Mus musculus with 24 samples.

Results

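The 10 genes described here encode heat shock chaperones, the proteins that hold, refold or pass on unfolded clients. They were taken by gene symbol from the 19018 genes of the expected-count table: Hsph1, Hspa1a, Hspa1b, Hspa8, Hspa4l, Hsp90aa1, Hsp90ab1 and Dnajb1, whose products work in the cytosol and nucleus, and Hspd1 and Hspe1, whose products work in mitochondria. All 10 were counted in all 24 libraries and passed the filter on low values. The libraries were made from whole eyes of male CBA/N mice, obtained at 10 weeks of age and then housed for 4 weeks under short day and cool temperature (SC, with 8 h of light and 16 h of darkness at 10 °C) or long day and warm temperature (LW, with 16 h of light and 8 h of darkness at 27 °C). Eyes were taken every 4 h from 2 to 22 h, counted from midnight, with 2 eyes at each time under each condition. By the study's drawn schedule the lights were on under both conditions at 10 and 14 h, off under both at 2 and 22 h, and on under LW alone at 6 and 18 h. Photoperiod and temperature changed together, so their parts in any difference between LW and SC cannot be told apart.

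Heat shock proteins work in relays. HSP70 proteins bind unfolded stretches of a client, HSP40 proteins such as DNAJB1 deliver clients and stimulate the ATPase of HSP70, proteins of the HSP110 family such as HSPH1 and HSPA4L exchange its nucleotide, and HSP90 takes over clients such as kinases and steroid receptors in a late stage of folding. In mitochondria, HSPD1 forms the barrel and HSPE1 the lid of a chaperonin that encloses its clients. Many of these genes are induced by the transcription factor HSF1, which binds alternating copies of a short unit in their promoters, and they are known to follow body temperature over the day. In the eye they are known for protecting photoreceptors and the lens against heat, light and oxidative stress.

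Promoter windows were searched for exact copies of the binding unit of HSF1, and transcripts for stretches that are hard to separate in reads. The unit searched was GAA or its inverse TTC, and windows from 250 bases before to 50 after the annotated start were scanned on both strands for 3 units in alternating orientation with 2 bases between them, and for any pair of them (GAANNTTC or TTCNNGAA). Pairs are part of every run of 3 units. RefSeq windows (GRCm38.p6) were matched for 7 of the 10 members, and none for Hspa8, Hsp90aa1 and Hsp90ab1. A run of 3 units was present for 3 of the 7, Hsph1, Hspd1 and Hspe1. The share was 0.603% of all 32851 windows and 0.564% of the 14886 genes with expected counts and a window. A pair was present for 5 of the 7, with Hspa1a and Hspa1b added, against 15.1% of all windows and 14.9% of those genes. No match was found in the windows of Hspa4l and Dnajb1, which says only that these letters are not there. Hspd1 and Hspe1 are neighbours transcribed away from each other, one Hspd1 window shares 285 bases with that of Hspe1, and a single stretch of 4 alternating units lies in both, at -89 to -72 from the start of Hspe1. It is shown from chr1:55088038-55088097 on the strand of Hspe1, with the units and their spacers in capitals, because it is common to both mitochondrial members.
Hspe1 and Hspd1: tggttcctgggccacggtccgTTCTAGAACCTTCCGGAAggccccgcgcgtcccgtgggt

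Hsph1, the member with the largest difference between LW and SC over the day, has its run of 3 units after the start in each window that holds it. The run lies at 16 to 28 from one annotated start and at 37 to 49 from another, chr5:149636288-149636300 on the minus strand. The stretch chr5:149636280-149636308 is shown with the run in capitals.
Hsph1: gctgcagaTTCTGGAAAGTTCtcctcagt

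The windows of Hspa1a and Hspa1b differ at 4 of 300 bases (98.7% identical). The 60 bases around their single pair, -130 to -71 from the start, are the same in both genes, and are shown from chr17:34972227-34972286 (Hspa1a, minus strand) with the pair in capitals, since the likeness of this pair of genes bears on their values.
Hspa1a and Hspa1b: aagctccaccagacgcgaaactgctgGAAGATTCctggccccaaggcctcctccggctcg

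Both genes have a single exon, and 48.6% of the 100-base stretches of the Hspa1a transcript occur unchanged in Hspa1b (49.9% in the other direction). Reads of 100 bases from these stretches can be split between the genes only by estimate, so the separate values of Hspa1a and Hspa1b are uncertain and their sum is given beside them. The share of Hspa1a in the sum lay between 36.7% and 42.5% in all 24 libraries. Of the Hspe1 transcript, 20.4% of the stretches also occur in another coding gene. For Hspa8 (62.8%), Hsp90aa1 (47.5%) and Hspd1 (26.9%) stretches are shared with pseudogenes or noncoding genes.

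Total expected counts ranged from 20164885 over a median of 24449062 to 28447184 in the SC libraries and from 19543401 over 25057540 to 28859071 in the LW libraries. All values given here are expected counts scaled by TMM factors to the mean library. SC 6 h replicate 2 and, at a lower level, SC 10 h replicate 2 held liver transcripts: the summed scaled count of 6 liver genes was 2608 and 402 in them and at most 14.4 in the other 22. SC 6 h replicate 2 also had a summed scaled count of cornified skin markers of 5620, against at most 438 in any other library. Marker transcripts of several tissues differed between the conditions, where 4.84% of all genes tested were called higher under LW and 4.65% lower. Rod markers were present in all libraries, with summed scaled counts from 741247 to 870539 under SC and from 750049 to 933360 under LW, and 3 of 5 were called higher under LW. Of 5 pigment epithelium markers 2 were called lower (24486 to 28632 under LW, against 27329 to 30806 under SC). Of 6 lens fibre markers 5 were called higher under LW (summed scaled count 532359 to 616063, against 456259 to 565455 under SC), and of 5 corneal epithelium markers 4 were called lower (237007 to 332679, against 306549 to 354588). Sclera and fibroblast markers had 1 of 5 called higher, and skeletal muscle markers 1 of 6 called lower. The part of these marker differences in the chaperone differences between LW and SC was not tested. In whole eyes fewer cells of a type and less RNA per cell cannot be told apart.

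Per kilobase of transcript, Hspa8 and both HSP90 genes had the highest levels. Hspa8 (9, 40800984 to 40810087), the constitutive cytosolic HSP70, had a scaled count per kilobase of 14646 ± 1921 (SD, n = 24). Hsp90aa1 (12, 110690605 to 110702728), the stress-inducible HSP90, followed with 9390 ± 1405 per kilobase, and Hsp90ab1 (17, 45567775 to 45573271), the constitutive HSP90, with 8045 ± 569. Ranges over the 24 eyes overlapped between Hsp90aa1 and Hsp90ab1, and also between Hspa8 and Hsp90aa1. All other members lay below these. Hspa1b (17, 34956436 to 34959238) and Hspa1a (17, 34969190 to 34972156), the inducible HSP70 genes, had 1784 ± 287 and 1090 ± 175 per kilobase. The mitochondrial members Hspd1 (1, 55077835 to 55088243) and Hspe1 (1, 55088132 to 55091307) had 1346 ± 106 and 1180 ± 81.4 per kilobase, with overlapping ranges. Dnajb1 (8, 83608193 to 83612653) had 774 ± 78.9, Hspa4l (3, 40744495 to 40796103) 469 ± 46.3 and Hsph1 (5, 149614287 to 149636376) 439 ± 97.7 per kilobase. From the highest to the lowest mean, neighbours in the order Hspa1b, Hspd1, Hspe1, Hspa1a and Dnajb1 had overlapping ranges, as did Hspa4l and Hsph1, whereas Dnajb1 lay above Hspa4l over all eyes (644 to 963 against 412 to 594). Positions are chromosome, start and end in GRCm38.

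**Figure D1:**
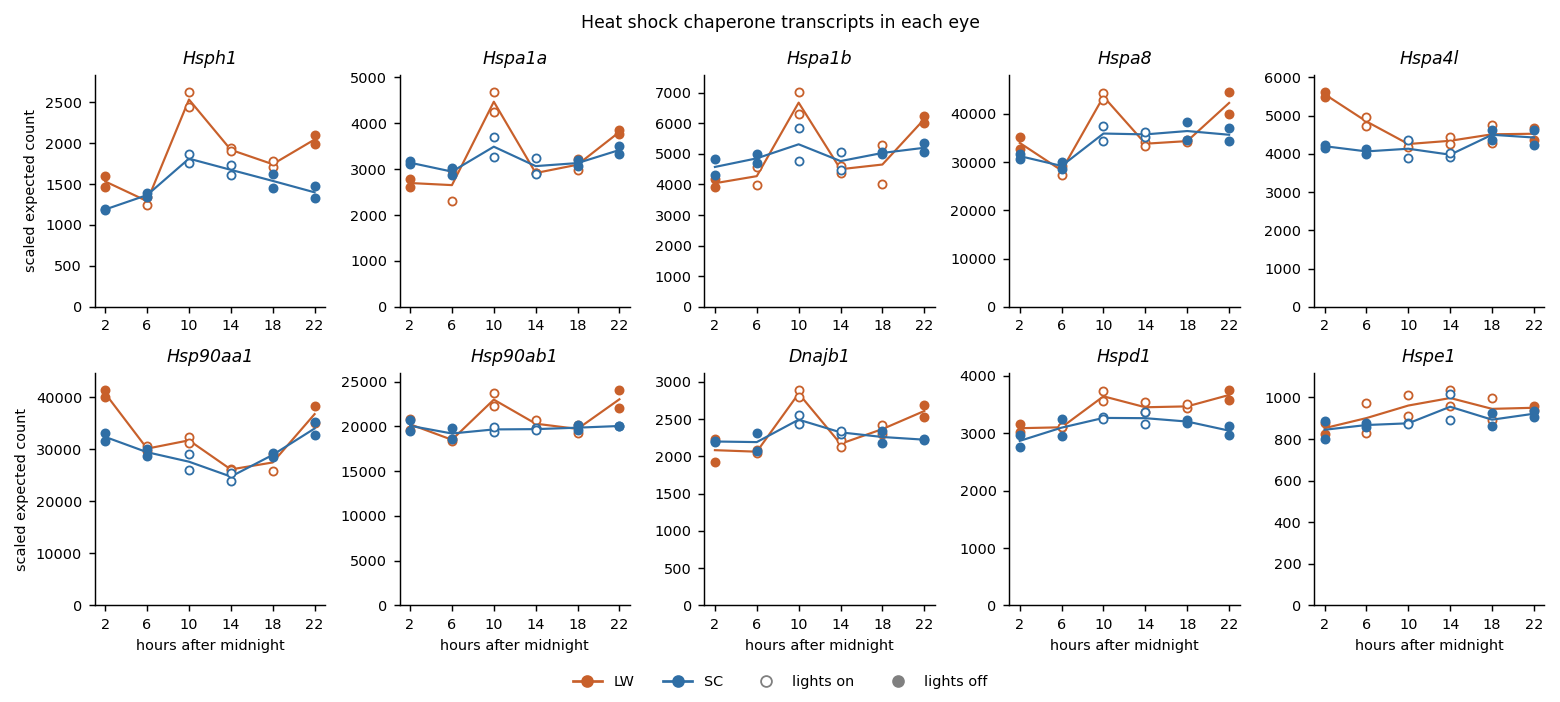
Scaled expected count of each member (y, from 0) against hours after midnight (x) in every eye, LW orange and SC blue, with lines through the means of 2 eyes and open points where the lights were on. Under LW, Hsph1, Hspa1a, Hspa1b, Hspa8 and Dnajb1 were highest at 10 h, while Hspa4l and Hsp90aa1 were highest at 2 h.

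Averaged over the day, 5 of the 10 members were higher under LW, and the HSP110 gene Hsph1 differed most.
The largest difference, in Hsph1, was 1.22-fold. The mean of 12 eyes was higher under LW for each of the 10 members, by little for some. The median was lower under LW for Hspa1a (2984 against 3188), Hspa1b (4587 against 4994) and Hspa8 (34401 against 34578). Hspa1a and Hspa1b had a higher LW group mean at only 2 of the 6 times. A member was called at a Benjamini-Hochberg adjusted p under 0.05 from limma, adjusted over the 18233 genes tested, of which 9.49% were called (4.84% higher and 4.65% lower under LW). No member was called lower, none was lower at an unadjusted p under 0.05, and limma voom called none lower. The median log2 difference, LW minus SC, was 0.07 over the members and -0.0004 over all genes tested. Log2 differences are on the scale log2(scaled expected count + 1).

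Under LW, the 12 scaled counts of Hsph1 ran from 1246 over a median of 1839 to 2628, and under SC from 1187 over 1461 to 1866. Of the 12 LW eyes 6 lay above every SC eye, although the ranges overlapped. The means were 1843 ± 416 and 1496 ± 223 (SD, n = 12), a log2 difference of 0.28 ± 0.03 (SE, adjusted p = 1.63e-06). Its relative Hspa4l, also of the HSP110 family, had scaled counts from 4171 over 4559 to 5626 under LW and from 3904 over 4201 to 4625 under SC. Again 6 LW eyes lay above every SC eye, and the log2 difference was 0.14 ± 0.03 (adjusted p = 0.000901). Both HSP90 genes were called. Hsp90aa1 had scaled counts from 25766 over 30821 to 41284 under LW and from 23951 over 29221 to 35149 under SC, a log2 difference of 0.11 ± 0.03 (adjusted p = 0.00616). Hsp90ab1 had scaled counts from 18399 over 20449 to 24019 under LW and from 18606 over 19794 to 20664 under SC. Its LW values spread to both sides, with 6 eyes above every SC eye and the 2 eyes of 6 h (18399 and 18604) below. The log2 difference was 0.07 ± 0.02 (adjusted p = 0.0396). For Hsp90aa1, 3 LW eyes lay above every SC eye. Hspa1a, Hspa1b and Hspa8, which were not called, had 4 such eyes each, Dnajb1 3 and Hspe1 1. These counts of eyes therefore did not follow the calls, and they were not computed over all genes. The call of Hsp90ab1 was the weakest: it was lost under 18 of 40 other settings.

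Of the mitochondrial pair, Hspd1, the chaperonin barrel, was called higher under LW. Its scaled counts ran from 3017 over 3467 to 3745 under LW and from 2763 over 3167 to 3370 under SC, and 7 LW eyes lay above every SC eye. The log2 difference was 0.12 ± 0.02 (adjusted p = 0.00177), and the call of Hspd1, like that of Hsph1, was kept under all 40 other settings. Hspe1, the lid, was not called, with 934 ± 67.8 under LW and 893 ± 52.5 under SC (log2 difference 0.06 ± 0.04, adjusted p = 0.277). Hspa8 (log2 difference 0.07, adjusted p = 0.0675) and Dnajb1 (0.04, adjusted p = 0.439) were not called either. Hspa1a and Hspa1b were at 0.01 (95% interval -0.07 to 0.08) and 0.00 (95% interval -0.10 to 0.10), and their sum at 0.00 (adjusted p = 0.970). The calls of Hspa4l and Hsp90aa1 came from 2 h in part: without the 4 eyes of that time their log2 differences were 0.09 and 0.07 (adjusted p = 0.0859 and 0.187).

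**Figure D2:**
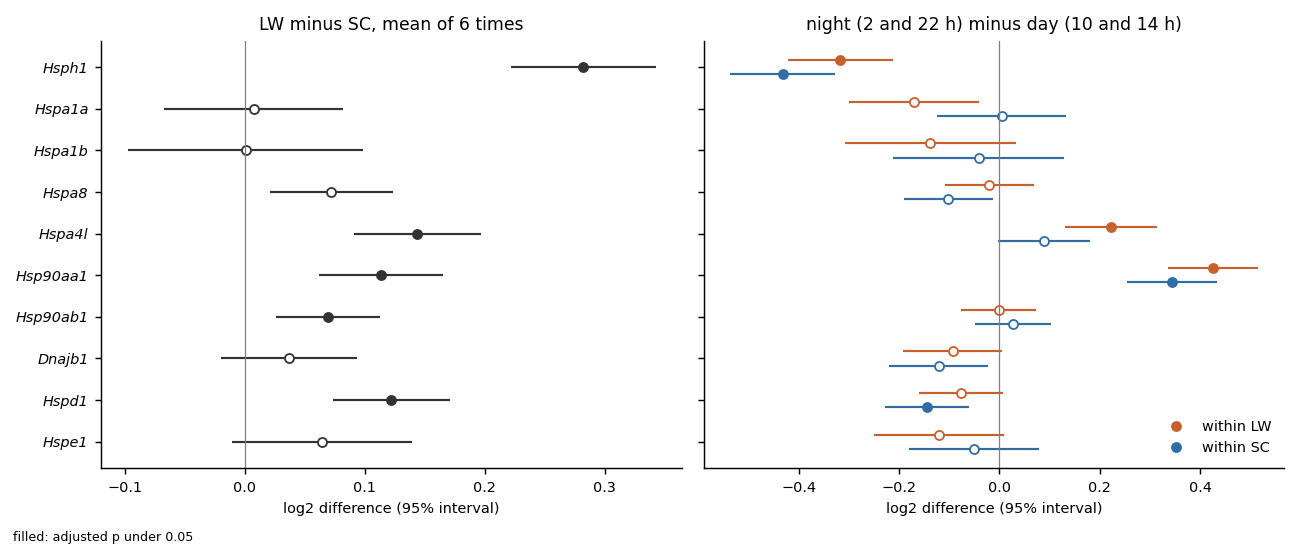
Log2 difference with its 95% interval (x) for each member (y): left, LW minus SC over the 6 times; right, 2 and 22 h minus 10 and 14 h within LW (orange) and SC (blue). Filled points had an adjusted p under 0.05: Hsph1 lay at 0.28 on the left, and Hsp90aa1 and Hsph1 lay on opposite sides of 0 on the right.

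Members were called between LW and SC at 2, 6, 10 and 22 h. The group means of Hspa4l, Hspd1 and Hspe1 were higher under LW at all 6 times, in places by little. The log2 differences were 0.002 for Hspa4l at 18 h, 0.005 for Hspd1 at 6 h and 0.01 for Hspe1 at 2 h. The share of all genes with this order was not computed, and Hspe1 was called at no time. At 10 h, both LW eyes lay above both SC eyes for 9 of the 10 members, against 22.9% of all genes tested, and at 22 h for 8, against 21.8%. The reverse order was seen for 0 members at these times, against 20.7% and 21.1% of all genes. All members were measured in the same eyes and were chosen with earlier results known, so these counts are a description with no test. At 2 h LW lay above SC for 5 members (25.0% of all genes) and below for 2 (25.0%), and at 6 h above for 1 (20.7%) and below for 3 (21.7%). At 14 h LW lay above for 4 members (18.2%) and below for 2 (19.1%), and at 18 h above for 2 (20.4%) and below for 1 (21.0%). At 10 h limma called 3 members higher under LW, Hsph1, Hspa8 and Hsp90ab1, against 0.318% of all genes called higher and 0.192% lower. At 22 h it called 4 higher, Hsph1, Hspa8, Hspd1 and Hsp90ab1, against 1.48% higher and 1.44% lower. At 2 h Hsph1, Hspa4l and Hsp90aa1 were called (1.77% of all genes higher and 1.87% lower), and at 6 h Hspa4l alone (1.33% higher and 1.47% lower). At 14 h (0.0439% higher and 0.132% lower) and 18 h (0.587% higher and 0.971% lower) limma and limma voom called 0 members, and 1, Hsph1, had an unadjusted p under 0.05. Limma and limma voom called 0 members lower under LW at any time, and at an unadjusted p under 0.05 there was 1, Hspa1a at 2 h.

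At 10 h, with the lights on under both conditions, the Hsph1 eyes were at 2437 and 2628 under LW and at 1754 and 1866 under SC, without overlap (log2 difference 0.48 ± 0.07, adjusted p = 0.000937). Hspa8 was at 42867 and 44342 against 34474 and 37419 (0.28 ± 0.06, adjusted p = 0.0356), and Hsp90ab1 at 22280 and 23695 against 19373 and 19942 (0.23 ± 0.05, adjusted p = 0.0473). The inducible HSP70 genes stood apart in the same way without passing the test. Hspa1a was at 4251 and 4686 against 3272 and 3705 (0.36, adjusted p = 0.0764), Hspa1b at 6318 and 7030 against 4765 and 5859 (0.33, adjusted p = 0.236), and their sum differed by 0.34 (adjusted p = 0.127). Hsph1 lost its call at 10 h without LW 10 h replicate 1 (adjusted p = 0.0573). Without the 2 libraries that held liver transcripts the calls of Hspa8 and Hsp90ab1 were lost (adjusted p = 0.0704 and 0.175, log2 differences 0.34 and 0.24), leaving 1 member called at this time. In all, Hspa8 lost its call under 8 of 34 settings (adjusted p up to 0.302), 4 of them the removal of 1 of the 4 eyes of that time, and Hsp90ab1 under 22.

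At 22 h, with the lights off under both conditions, Hsph1 was at 1993 and 2095 under LW and at 1326 and 1471 under SC, the largest of its differences (0.55 ± 0.07, adjusted p = 7.8e-05), and its call was kept under all 34 settings. Hspa8 was at 39974 and 44616 against 34313 and 37069 (0.24 ± 0.06, adjusted p = 0.0280), and Hsp90ab1 at 22033 and 24019 against 20031 and 20051 (0.20 ± 0.05, adjusted p = 0.0364). Both lost the call without either SC 22 h eye or without LW 22 h replicate 1 (adjusted p between 0.0620 and 0.290). Hspd1 was at 3585 and 3745 against 2970 and 3118 (0.27 ± 0.06, adjusted p = 0.0105), lost without SC 22 h replicate 2 or LW 22 h replicate 2 (0.135 and 0.120). The same 2 LW eyes had the highest summed scaled counts of 11 immediate early genes, 23392 and 29131, against at most 13242 in the other 22 libraries. The part of that in the chaperone values was not tested.

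At 2 h, with the lights off under both conditions, Hspa4l had the largest difference. It was at 5497 and 5626 under LW against 4158 and 4246 under SC (0.40 ± 0.06, adjusted p = 0.000535), kept under all 34 settings, and Hsp90aa1 at 40072 and 41284 against 31554 and 33142 (0.33 ± 0.06, adjusted p = 0.00333). Hsph1 was at 1465 and 1597 against 1187 and 1191 (0.36 ± 0.07, adjusted p = 0.00549). At this time Hspa1a and Hspa1b had log2 differences of -0.22 and -0.18 (adjusted p = 0.182 and 0.443), so the members did not move as one. Hsph1 and Hsp90aa1 lost their calls without SC 2 h replicate 1 (adjusted p = 0.0594 and 0.0766) or LW 2 h replicate 2 (0.114 and 0.0590). At 6 h Hspa4l was at 4727 and 4970 against 3997 and 4134 (0.25 ± 0.06, adjusted p = 0.0302), a call lost without any 1 of the 4 eyes of that time (adjusted p 0.0542 to 0.225).

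**Figure D3:**
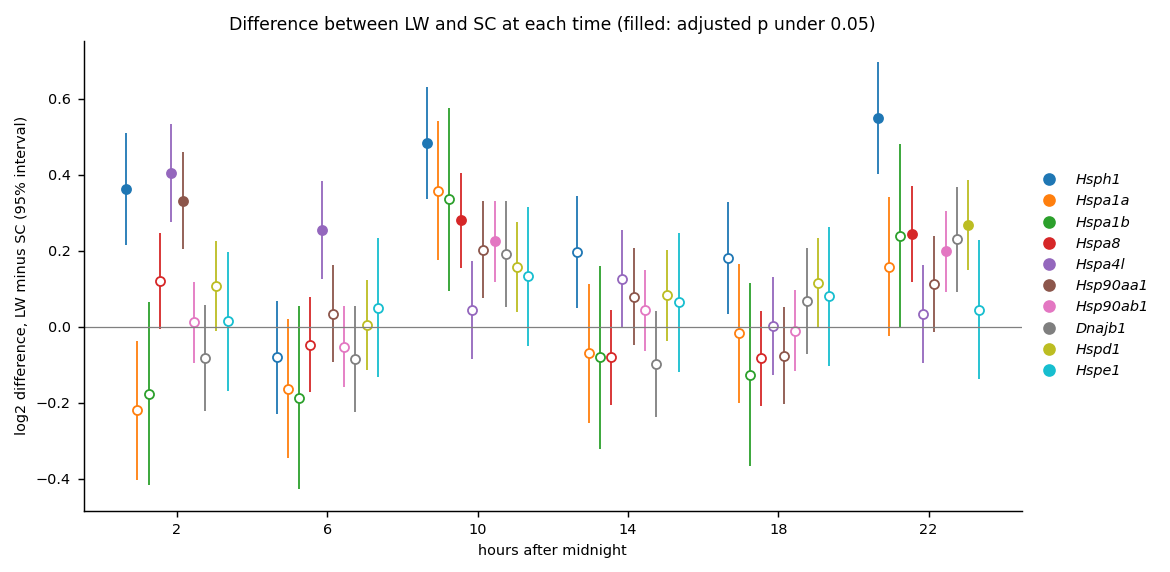
Log2 difference between LW and SC with its 95% interval (y) for each member at each time (x, hours after midnight), filled where the adjusted p was under 0.05. The filled points lie at 2, 6, 10 and 22 h, with Hsph1 at 0.48 and 0.55 at 10 and 22 h.

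Whether the difference between LW and SC varied with time was tested by an F test of the interaction, which called 4 members, Hsph1 (adjusted p = 0.00299), Hspa8 (0.0129), Hspa4l (0.0248) and Hspa1a (0.0347), against 4.98% of all genes. Hsp90aa1 (0.0509), Hsp90ab1 (0.0582) and Dnajb1 (0.0651) were just beyond the threshold. Hspa1b (0.145), Hspd1 (0.333) and Hspe1 (0.983) were not called either. Among the called members Hsph1 and Hspa8 were called under all 34 settings, whereas Hspa1a lost its call under 16 of 33 (by leaving out 1 of 16 libraries, adjusted p up to 0.135), and the sum of Hspa1a and Hspa1b was not called (0.0582). Hspa4l lost its call without any 1 of the 4 eyes of 2 h or without LW 10 h replicate 2 (adjusted p 0.0522 to 0.0999). At 6 and 18 h, lit under LW and dark under SC, the LW minus SC difference of Hsph1 was 0.35 ± 0.06 below that at the other times on the log2 scale (-0.35, adjusted p = 0.00421), the 1 member called, against 1.19% of all genes (0.230% higher and 0.960% lower), and kept under all 34 settings. For Hsph1 the difference was -0.08 at 6 h and 0.18 at 18 h. At the other times it was 0.36 (2 h), 0.48 (10 h), 0.20 (14 h) and 0.55 (22 h), so 14 and 18 h were close. In the same contrast Hspa8 (-0.21, adjusted p = 0.0539) and Hsp90aa1 (-0.20, adjusted p = 0.0662) did not pass.

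The daily range was wider under LW for all 10 members, against 58.8% of all genes tested. The highest of the 6 group means was 1.17 to 1.96 times the lowest under LW and 1.04 to 1.52 times under SC. Hsph1 means fell to 1291 at 6 h under LW and reached 2532 at 10 h, 1.96 times as much. Under SC they ran from 1189 at 2 h to 1810 at 10 h, 1.52 times. For Hspa1a the ratio was 1.69 under LW and 1.18 under SC, and for Hsp90ab1 1.24 and 1.04. An F test of time within LW called 9 members, all but Hspe1, against 19.0% of all genes, with adjusted p from 2.61e-08 for Hsph1 to 0.00507 for Hspd1. Within SC it called 3, against 10.7%: Hsph1 (3.29e-05), Hsp90aa1 (0.000214) and Hspa8 (0.00187). These counts do not compare the conditions. The interaction above is the test of that, and it called 4.

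Under LW, 5 cytosolic members were highest at 10 h, against 21.7% of all genes. These are Hsph1, Hspa1a, Hspa1b, Hspa8 and Dnajb1, and each was lowest at 6 h except Hspa1b, lowest at 2 h. Each had a second high mean at 22 h, Hspa8 at 42295 (43605 at 10 h), Dnajb1 at 2608 (2842 at 10 h) and Hspa1b at 6134 (6674 at 10 h). Hsp90ab1 and Hspd1 had nearly equal means at 22 h (23026 and 3665) and 10 h (22988 and 3642), with overlapping eyes. Under SC, 5 members were highest at 10 h, against 19.3% of all genes: Hsph1, Hspa1a, Hspa1b, Dnajb1 and Hspd1.

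Over the 12 group means, 6 cytosolic members (Hsph1, Hspa1a, Hspa1b, Hspa8, Hsp90ab1 and Dnajb1) had pairwise Pearson correlations of log2 values from 0.69 to 0.96. Hspa4l and Hsp90aa1 correlated with each other at 0.68 and with those 6 between -0.42 and 0.41. Hspd1 correlated with Hspe1 at 0.78 and with Hsph1 at 0.93. The group means share libraries and scaling, and the correlations describe these 12 groups with no test.

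Between night and day the cytosolic members split. Eyes at 2 and 22 h (dark under both conditions) were compared with those at 10 and 14 h (lit under both), a contrast in which 19.6% of all genes were called, 9.47% higher and 10.1% lower at night. Of the members, 2 were called higher at night, Hsp90aa1 and Hspa4l, and 3 lower, Hsph1, Hspd1 and Dnajb1. Under SC the night eyes of Hsp90aa1 ran from 31554 to 35149 and the day eyes from 23951 to 29142, and under LW from 35095 to 41284 and from 26084 to 32265. Night lay above day without overlap under both conditions (4 eyes each), against 6.07% of all genes under SC and 5.42% under LW, and the log2 difference was 0.38 ± 0.03 (adjusted p = 3.64e-09). Hsph1 went the other way, with night eyes from 1187 to 1471 and day eyes from 1611 to 1866 under SC, an order without overlap that 6.36% of all genes showed. Under LW, where 6.18% of all genes showed it, the ranges of Hsph1 overlapped (1465 to 2095 at night, 1901 to 2628 by day), and the log2 difference over both conditions was -0.37 ± 0.04 (adjusted p = 5.98e-08).

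Hspa4l was higher at night by 0.16 ± 0.03 on the log2 scale (adjusted p = 0.000895), with a difference of 0.22 within LW (adjusted p = 0.00148) and 0.09 within SC (adjusted p = 0.241). Hspd1 had a difference of -0.11 (adjusted p = 0.00811) and Dnajb1 one of -0.11 (adjusted p = 0.0270). Under SC the night eyes of Dnajb1 (2197 to 2234) lay below its day eyes (2303 to 2555). Those of Hspd1 did so too (2763 to 3118, against 3153 to 3370), an order that 6.36% of all genes showed. Within LW the ranges of Dnajb1 overlapped (1928 to 2692 at night, 2119 to 2884 by day). So did those of Hspd1 (3017 to 3745, against 3362 to 3729), and those of Hspa4l overlapped under both conditions. The call of Dnajb1 was lost on leaving out 1 of 8 libraries (adjusted p up to 0.0940). Within LW limma called 3 members, Hsp90aa1, Hspa4l and Hsph1, against 12.2% of all genes (5.95% higher and 6.26% lower), and within SC 3, Hsp90aa1, Hsph1 and Hspd1, against 9.35% (4.49% higher and 4.86% lower). The within-SC call of Hspd1 was lost on leaving out 1 of 5 SC libraries (adjusted p up to 0.134). Whether night and day differed more under one condition was tested directly. With 0.713% of all genes called (0.411% higher and 0.302% lower), limma and limma voom called 0 members, and 1, Hspa4l, had an unadjusted p under 0.05 (difference 0.13, adjusted p = 0.455).

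The cytosolic and mitochondrial members were set against each other as the mean log2 value of the 8 minus that of the 2 in each library, as a description with no test. Over the day the difference was the same in both conditions, 2.02 ± 0.15 under LW and 2.02 ± 0.09 under SC (SD, n = 12), with means that differed by -0.002. The cytosolic mean was 12.8 ± 0.17 under LW and 12.7 ± 0.07 under SC, and the mitochondrial mean 10.8 ± 0.09 and 10.7 ± 0.07. By time, under LW, the cytosolic members stood furthest above the mitochondrial ones at 10 h (2.13 and 2.26 in the 2 eyes) and 22 h (2.10 and 2.16), and least at 14 h (1.82 and 1.90). Under SC the group means stayed between 1.92 at 14 h and 2.07 at 10 h. The LW and SC eyes overlapped at every time except 22 h, where the LW eyes lay above the SC eyes (2.04 and 2.09).

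**Figure D4:**
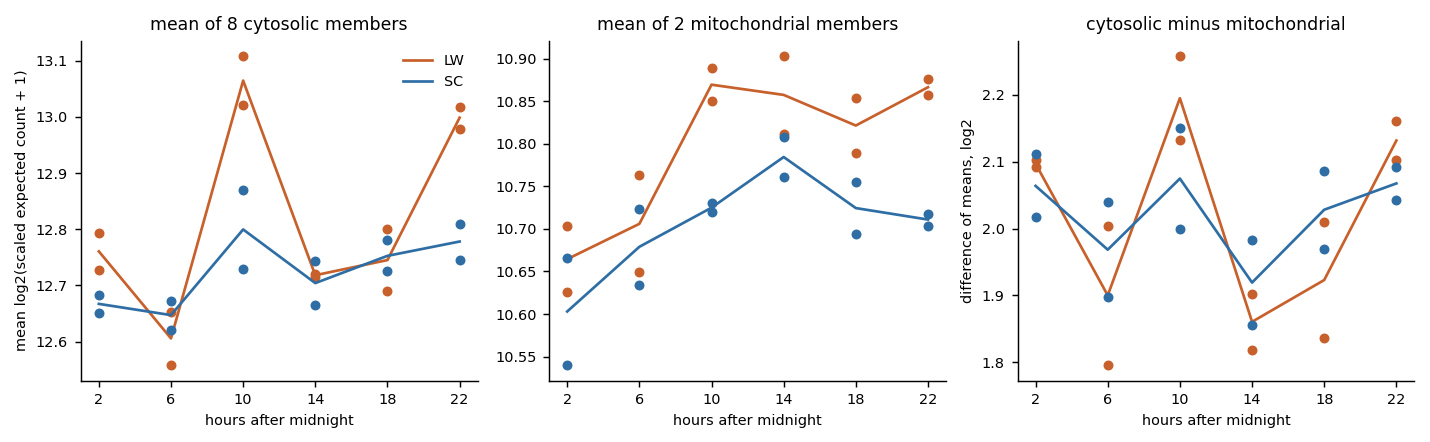
Mean log2(scaled expected count + 1) of the 8 cytosolic members (left), of the 2 mitochondrial members (middle) and their difference (right) on the y axes, per eye and by hours after midnight (x), with lines through the means of 2 eyes, LW orange and SC blue. The cytosolic mean of LW eyes was highest at 10 and 22 h, while the mitochondrial mean stayed high from 10 h on.

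Other genes of the chaperone network were counted in lists. Of 4 genes of HSF factors limma called 0 between LW and SC, with 0 at an unadjusted p under 0.05 and 0 by limma voom. Hsf1 itself had scaled counts of 1103 under LW and 1093 under SC (log2 difference 0.01 ± 0.03), and was lower at night over both conditions (-0.14 ± 0.04, adjusted p = 0.0111). Of 7 other HSP70 and HSP110 genes 1 was called higher under LW, Hspa4, which also encodes a cytosolic HSP110 protein (5086 against 4562, log2 difference 0.16 ± 0.02). Of 7 HSP40 genes of the cytosol 1 was called higher, Dnaja1, a partner of HSP70 (3272 against 2892, 0.18 ± 0.03), which was also lower at night (-0.22). Of 15 cofactors of HSP70 and HSP90 4 were called higher and 0 lower (0 lower at an unadjusted p under 0.05 and by limma voom), among them Cacybp (0.15), Ppid (0.17) and Ahsa2 (0.11), a homologue of the HSP90 ATPase activator. The background for each of these counts is 4.84% higher and 4.65% lower.

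Of 7 small heat shock protein genes 2 were called higher under LW, Hspb1, which encodes HSP27 (6138 against 5394, 0.19 ± 0.03, adjusted p = 0.00129), and Cryab (55101 against 48545, 0.18 ± 0.04), which is also a lens crystallin. The difference of Hspb1 was called at 10 h (0.43, adjusted p = 0.0189) and at 22 h (0.42, adjusted p = 0.00609), and varied with time (interaction adjusted p = 0.0107). The lens markers given above rose with the same contrast, with Cryaa at 0.21, and their part in the value of Cryab was not tested. Of 8 genes of the cytosolic chaperonin TRiC 1 was called higher, Cct6a (0.07 ± 0.02). Of 14 chaperones of the endoplasmic reticulum 5 were called higher, with Hsp90b1, the HSP90 of that compartment, at 0.12 ± 0.02, Calr at 0.11 and Pdia6 at 0.12. Calr, which folds glycoproteins, was also called at 10 h (0.29, adjusted p = 0.0164) and 22 h (0.31, adjusted p = 0.00250), with an interaction adjusted p of 0.00431. Hsp90b1 was called at 2 h (0.22, adjusted p = 0.0244), 10 h (0.26) and 22 h (0.21), with an interaction adjusted p of 0.00454. Some other genes of this list were called lower under LW at 6 h, and the same genes were called higher at 10 and 22 h. Of 10 other mitochondrial chaperones and proteases limma called 0, with 0 at an unadjusted p under 0.05 and 0 by limma voom, and their median log2 difference was -0.02. In that list Hspd1 and Hspe1 were not counted. Between night and day, with 9.47% of all genes called higher at night and 10.1% lower, 4 of the 10 other mitochondrial genes were lower at night, with Clpp at -0.22 and Dnaja3 at -0.15. Of the 14 endoplasmic reticulum chaperones 4 were higher, with Hsp90b1 at 0.17 and Canx at 0.15, and 2 lower. TRiC had 3 of 8 lower, the cofactors 3 of 15 lower and the small heat shock proteins 2 of 7 lower. The HSP40 genes had 2 of 7 higher and 1 lower, the other HSP70 and HSP110 genes 1 of 7 higher and 1 lower, and the HSF factors 1 of 4 lower.

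**Figure D5:**
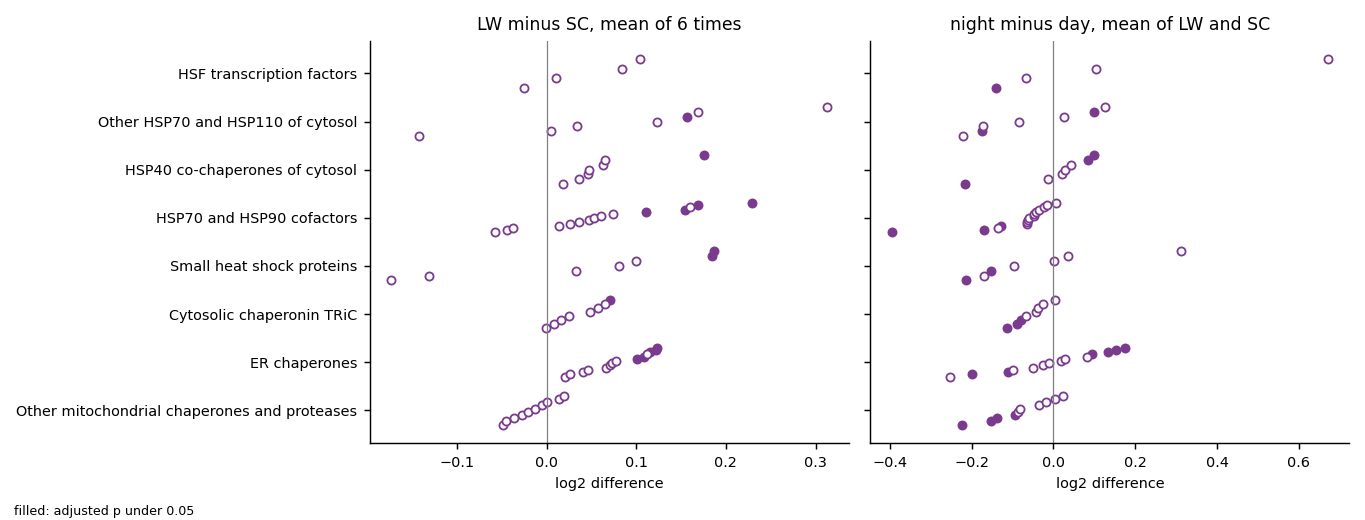
Log2 difference (x) of each gene of 8 lists of the chaperone network (y): left, LW minus SC over the 6 times; right, night minus day over both conditions. Filled points had an adjusted p under 0.05, and on the left all of them lie above 0, whereas the HSF factors and the other mitochondrial chaperones hold none.

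Among the genes whose group means were most like the 8 cytosolic members, out of 14035 others with a mean scaled count of at least 50, were Pard6b, a polarity protein gene (Pearson r = 0.96 over the 12 group means), and the HSP90 partners Ahsa2 (0.95) and Stip1 (0.94), the last of which encodes the adaptor HOP between HSP70 and HSP90. They were followed by Mtmr4 (0.94) and by Itpkb, Wdtc1, Rubcn, Tjap1 and Irf2bpl (0.90 to 0.91). Near to the 2 mitochondrial members were Vgf (0.91), a neuropeptide precursor gene, Adal (0.90), Cct3 (0.90), a subunit of TRiC, and Ccnjl (0.89).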

How the data were processed

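Whole-eye mRNA libraries (strand-specific, paired reads of 100 bases) were filtered by the authors with SOAPnuke, mapped with HISAT2 2.0.4 to GRCm38.p6 (both named in the submitters' processing notes), and quantified with RSEM, whose version is not given in the sources used here. The deposited table holds other values than plain counts: RSEM expected counts in which 43565 cells hold no number. These were read as 0. Of the values, 89.6% were whole within 1e-06. Columns were grouped by the sample labels. Expected counts were scaled by TMM (30% and 5% trimmed, factors 0.982 to 1.02). The 18233 genes that reached 1 scaled count in 2 or more libraries were tested with limma 3.58.1 (trend, robust) on log2(scaled expected count + 1) in R 4.3.3, with 12 group means and 12 residual degrees of freedom, and adjusted by Benjamini-Hochberg at 0.05. The pooled spread stands in for that of each pair of eyes. Whether both eyes of a group are from separate mice is not given in the sources used here, and the spread behind each p-value is that between eyes. On simulated tables the fit was tested with known changes. Transcript lengths and positions came from GENCODE (vM21, GRCm38), promoters from RefSeq, and plots from matplotlib 3.10.9 in Python 3.11.15. The members, lists, contrasts and alternatives were chosen with earlier results of these data known. All members were named, up to 3 genes per list with the smallest p in each of the contrasts LW minus SC and night minus day, and the 10 and 5 genes most like the members, of which 2 are not reported here.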

Additional observations from a re-analysis of the deposited data

Results flagged for a closer look

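The LW minus SC difference varied with the time of day, by the F test of the interaction, in Hsph1 (adjusted p = 0.00299), Hspa8 (0.0129), Hspa4l (0.0248) and Hspa1a (0.0347). For Hsph1 it was 0.55 at 22 h, 0.48 at 10 h and -0.08 at 6 h on the log2 scale, for Hspa8 0.28 at 10 h and -0.08 at 18 h, and for Hspa4l 0.40 at 2 h and 0.00 at 18 h. Hspa1a ran from 0.36 at 10 h to -0.22 at 2 h, with reads that may be split with Hspa1b. The interaction call of Hspa1a was lost under 16 of 33 settings and that of Hspa4l under 5 of 34. For the sum of Hspa1a and Hspa1b the F test made no call (adjusted p = 0.0582). The lights differed between the conditions at 6 and 18 h. The difference of Hsph1 was lower there than at the other 4 times, by an amount of -0.35 (adjusted p = 0.00421). It was 0.18 at 18 h, though, and 0.20 at 14 h, when the lights were on under both.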

How the results depend on the processing

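Count models planned as alternatives were not run, because cells without a number kept the table from being treated as counts. Replicate numbers did not pair eyes: at the 6 times, same-numbered LW and SC eyes deviated from their group means with correlations of -0.25 to -0.09. The replicate block kept the number of members called within 1.5 times for all comparisons but that of 6 and 18 h, 2 in place of 1. TMM without crystallins and the 20 most abundant genes, a mean scaled count of at least 10 and limma voom gave 2 there as well, and without the 2 libraries that held liver transcripts 1 member was called at 10 h in place of 3. Without the eyes of 2 h 3 members were called higher between LW and SC (3 to 6 on leaving out any time), and 950 of all genes in place of 1730. Leaving out 1 library gave 4 to 6 members for the season, 1 to 3 at 2 h, 0 to 1 at 6 h, 0 to 4 at 10 h, 1 to 5 at 22 h, 1 to 3 for 6 and 18 h and 2 to 6 for the interaction. Values near 0 changed sign. Hspa1a between LW and SC did so in 5 fits without 1 library (-0.0215 to 0.0385) and without the eyes of 10 h (-0.0612) or 22 h (-0.0224), with 0.0525 as the highest value on leaving out a time. Hspa1b did so with RLE (-0.0005), library totals (-0.00349), TMM without crystallins (-0.00574), limma voom (-0.000604), without the eyes of 10 h (-0.0649) or 22 h (-0.0472; highest without a time 0.0384) and without single libraries (-0.0312 to 0.0332). Dnajb1 did so without the eyes of 22 h (-0.00197; highest without a time 0.0656), and Hsp90ab1 at night without LW 22 h replicate 1 (-0.00279; highest without a library 0.0280). Of 612 values of members under other settings 592 kept direction and call, and of 1632 on leaving out 1 library 1513 did.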

Other observations

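Rbm3, a cold-inducible RNA-binding protein gene, was lower under LW, with 2498 against 3097 (log2 difference -0.31 ± 0.06, adjusted p = 0.00380), and its differences at 10 h (-0.62, adjusted p = 0.0778) and 22 h (-0.38, adjusted p = 0.202) had the opposite sign to those of Hsph1 without passing the test. Its relative Cirbp had 4341 under LW and 4688 under SC (-0.12, adjusted p = 0.103). Fkbp5, an HSP90 cofactor that is induced by glucocorticoids, was not called between LW and SC over the day (-0.06, adjusted p = 0.475), but its difference varied with time (interaction adjusted p = 0.00673), with -0.65 at 10 h (adjusted p = 0.00694) and 0.33 at 22 h (adjusted p = 0.127), and it was lower at night over both conditions (-0.39), with -0.70 within SC (adjusted p = 2.14e-06) and -0.09 within LW (adjusted p = 0.533).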
